A study of Homo sapiens with 6 samples.

Results

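The genes described here start between 78.0 and 94.8 Mb of chromosome 1 (hg19), a segment of the short arm around bands 1p22 to 1p31. All annotated gene types were taken, and 7 genes of the interval were left out by the rule that defined the segment: IFI44, IFI44L, CYR61, COL24A1, TGFBR3, GCLM and ABCA4. The segment held 254 of the 57820 genes in the table. Of these, 74 had enough counts to be tested, 80 had counts but did not pass the filter, and 100 had no count in any library. The segment was selected on the log2 fold changes between knockout and control libraries in these same data, so the differences of its members in that comparison are a description and no test of them is given.

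RNA-seq of polyadenylated RNA had been carried out on 3 control libraries and 3 libraries labelled FOXC1 KO, all of J82, a long-established line of human bladder cancer cells. FOXC1 is a forkhead transcription factor. Per the labels and the study's methods, the KO cells had received the lentiCRISPR v2 vector with a guide RNA against FOXC1 and had been selected with puromycin, and the control cells carried a vector. The methods speak of knockout clones checked by western blotting. How many clones entered the libraries, and whether the 3 libraries of a group came from separate cultures, was not stated, so the spread between replicates may be technical.

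Neighbouring genes on a chromosome arm often have unrelated functions, apart from families that arose by tandem duplication and stayed side by side. This segment holds several such families. The guanylate-binding proteins (GBPs) are interferon-inducible GTPases that act against intracellular pathogens, the CLCA genes encode secreted or membrane-anchored proteins named for chloride currents, and the LRRC8 genes encode subunits of the volume-regulated anion channel. Between them lie housekeeping genes such as RPL5, a protein of the large ribosomal subunit, and regulators such as LMO4, a LIM-domain cofactor of transcription factors.

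The promoters of 5 members are shown to give the range of sequence found in one segment: LMO4 and GBP1, which were higher in KO libraries, LPAR3, which was lower, LRRC8D, whose level did not separate the groups, and ODF2L, chosen because its promoter held the forkhead letters searched for. Each runs 5′ to 3′ from 250 bases before to 50 bases after the RefSeq gene start in GRCh38.p14, a later build than that of the count table. Capitals mark matches to GTAAACA or ATAAACA on either strand. LMO4 lies on the plus strand at chr1:87328630-87328929, GBP1 on the minus strand at chr1:89065159-89065458, LPAR3 on the minus strand at chr1:84893157-84893456, LRRC8D on the plus strand at chr1:89820782-89821081 and ODF2L on the minus strand at chr1:86396274-86396573.
LMO4: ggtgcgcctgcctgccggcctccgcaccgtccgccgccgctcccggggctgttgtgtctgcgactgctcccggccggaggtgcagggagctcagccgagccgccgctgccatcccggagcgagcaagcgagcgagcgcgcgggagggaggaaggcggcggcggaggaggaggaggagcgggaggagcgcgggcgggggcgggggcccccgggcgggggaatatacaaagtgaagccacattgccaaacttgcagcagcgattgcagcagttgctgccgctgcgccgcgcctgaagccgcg
GBP1: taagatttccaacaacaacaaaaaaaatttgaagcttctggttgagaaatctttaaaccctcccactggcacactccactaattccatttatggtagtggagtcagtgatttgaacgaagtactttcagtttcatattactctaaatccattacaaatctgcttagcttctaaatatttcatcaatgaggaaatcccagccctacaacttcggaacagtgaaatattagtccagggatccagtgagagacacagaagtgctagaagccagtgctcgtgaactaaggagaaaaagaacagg
LPAR3: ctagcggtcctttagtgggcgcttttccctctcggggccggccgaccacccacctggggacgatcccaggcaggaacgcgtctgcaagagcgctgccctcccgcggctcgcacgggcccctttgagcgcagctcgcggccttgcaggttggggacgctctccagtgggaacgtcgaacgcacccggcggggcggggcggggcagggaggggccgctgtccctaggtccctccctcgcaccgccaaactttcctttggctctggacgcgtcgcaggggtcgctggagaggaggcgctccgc
LRRC8D: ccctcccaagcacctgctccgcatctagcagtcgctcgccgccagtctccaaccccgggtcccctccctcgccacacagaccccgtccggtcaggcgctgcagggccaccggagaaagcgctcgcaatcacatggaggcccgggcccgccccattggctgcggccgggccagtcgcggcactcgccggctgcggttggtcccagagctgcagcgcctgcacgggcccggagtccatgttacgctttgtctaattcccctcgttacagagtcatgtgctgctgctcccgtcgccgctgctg
ODF2L: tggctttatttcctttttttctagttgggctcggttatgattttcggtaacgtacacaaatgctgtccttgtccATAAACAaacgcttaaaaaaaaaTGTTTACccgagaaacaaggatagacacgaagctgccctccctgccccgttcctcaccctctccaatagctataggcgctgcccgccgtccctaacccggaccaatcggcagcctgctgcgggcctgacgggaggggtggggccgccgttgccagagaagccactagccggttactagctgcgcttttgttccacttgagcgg

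The promoter of LMO4 had a GC content of 74% and 38 CpG dinucleotides in its 300 bases, and those of LPAR3 (71.3%, 33 CpGs) and LRRC8D (69%, 29 CpGs) were similar. GBP1 was different, with 38.7% GC and 3 CpGs. ODF2L, which encodes a centriolar protein, had 2 matches to the forkhead letters. RefSeq promoters were found for 61 of the 74 tested members, and 4 of the 61 (6.56%) held a match, those of ODF2L, GBP4, BARHL2 and BTBD8. Over all 35116 promoters of the table, 2608 (7.43%) held one. Of the members called higher, 18 had a promoter and 0 of these held a match in this window. The median GC content was 67.3% in the promoters of tested members and 58.7% over all promoters. The set of all promoters was not limited to tested genes or by gene type. The 2 sets are therefore unlike, and the differences between them cannot be laid to the segment.

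The control libraries held 22900531 to 25013311 counts and the KO libraries 18408134 to 25350908, and 15647 genes were tested. Values are given as CPM, read counts scaled to library size with TMM factors. A gene was called when its Benjamini-Hochberg adjusted p in the edgeR quasi-likelihood test was under 0.05 and its fold change over 1.3. FOXC1 itself, on chromosome 6, stood at 18.2 ± 1.21 CPM (SD, n = 3) in control and 22.5 ± 1.5 CPM in KO libraries, so its transcript did not check the labels, and directions below are those of the libraries labelled FOXC1 KO. Epithelial keratins were abundant in both groups. KRT8 stood at 1658 CPM in control and 1091 CPM in KO libraries, KRT18 at 544 and 383 CPM, KRT19 at 127 and 78.2 CPM and KRT7 at 992 and 948 CPM. Of the other urothelial and epithelial markers, GATA3 stood at 35.3 and 26.3 CPM and EPCAM at 2.08 and 1.14 CPM, while UPK1A, UPK2, UPK3A, KRT5 and CDH1 had at most 5 counts in a library. The mesenchymal markers VIM (315 and 389 CPM) and CDH2 (209.8 and 194 CPM) were present. The part of these markers in the results was not tested. Of the blood markers, CD3E had 0 counts and PTPRC 3 to 9 per library.

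Most expressed genes of the segment stood higher in the KO libraries by a small amount. The median log2 fold change of the 74 tested members was 0.24 (1.18-fold), with quartiles at 0.067 and 0.41, and 60 of the 74 (81.1%) lay above zero. Over all tested genes the median was -0.00084 and 49.9% lay above zero. In the segment 21 members (28.4%) were called higher, and over all genes 7.57% were. Only 2 members (2.70%), LPAR3 and MCOLN3, were called lower, beside 8.39% of all genes. The 3 KO values lay above the 3 control values in 39 members (52.7%), beside 20.5% of all genes, and below them in 7, beside 20.8% of all genes. These figures describe how the segment was picked and carry no further weight. Of the 51 members that were not called, 39 had a log2 fold change above zero.

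**Figure D1:**
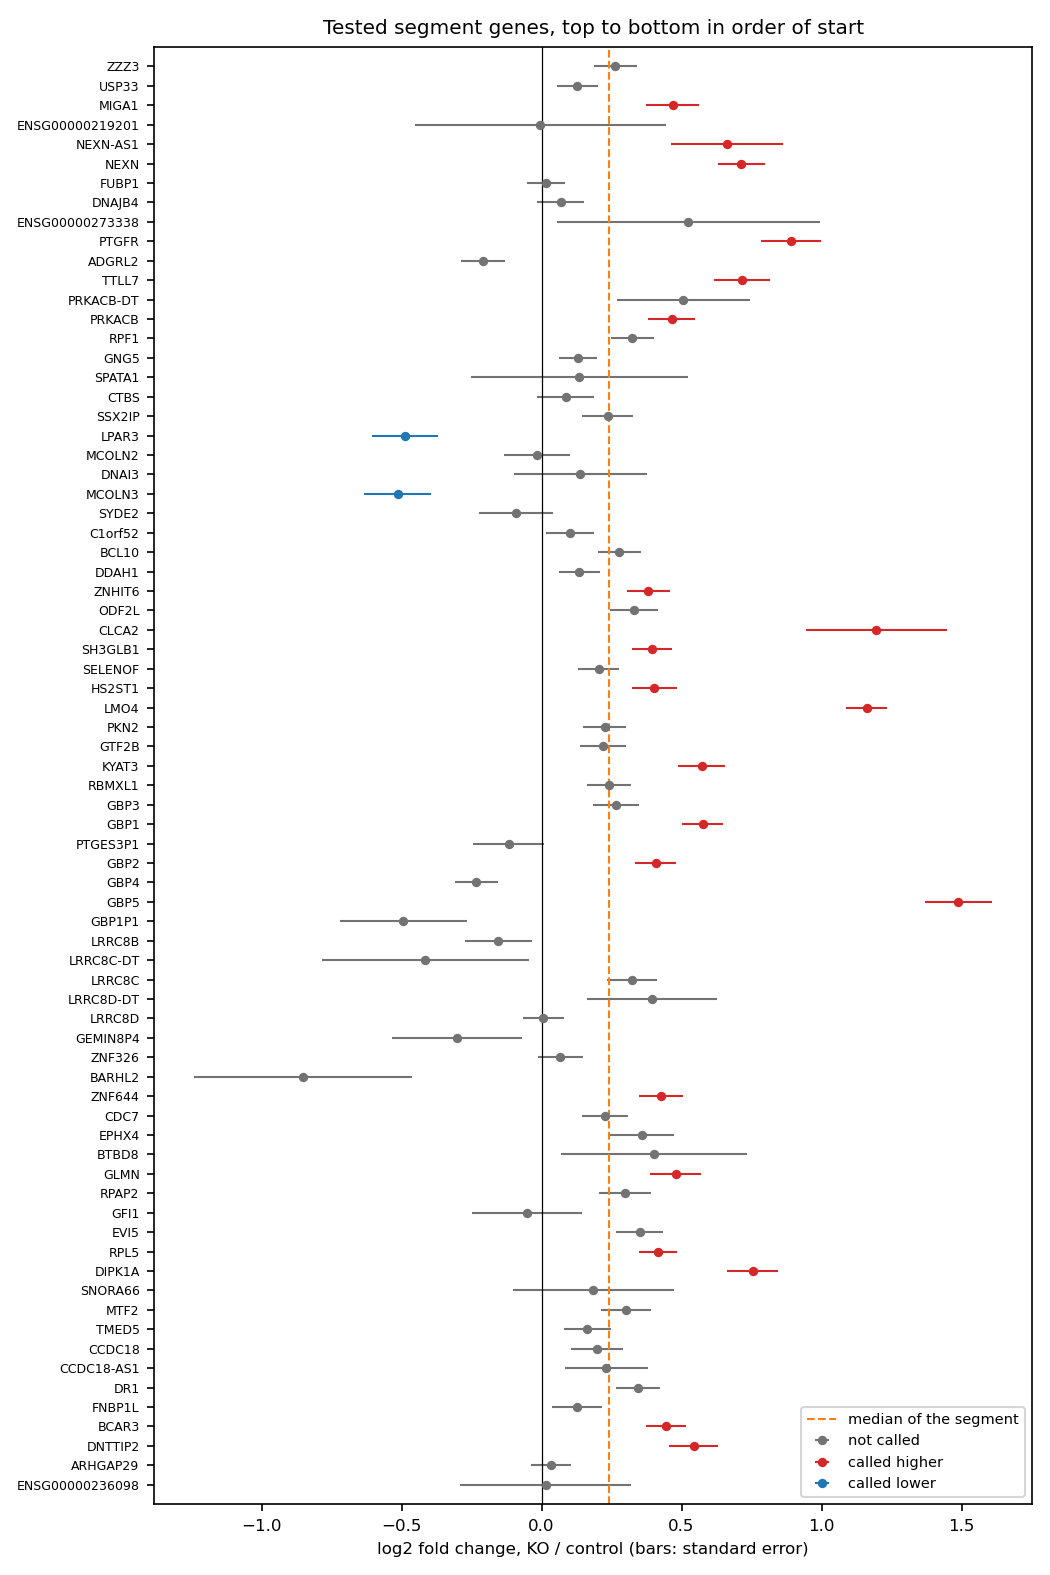
Log2 fold change (KO over control) of each of the 74 tested genes of the segment in order of gene start, with bars of 1 standard error, the segment median of 0.24 as a dashed line, and colours for genes called higher (21), lower (2) or not called (51). Most points lie right of zero, while 16 lie over 2 standard errors below the median and 20 lie over 2 standard errors above it.

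The same displacement was seen in each KO library. The median over members of log2 CPM minus the control mean was 0.21, 0.22 and 0.35 in KO replicates 1 to 3, and -0.080, 0.070 and 0.013 in the control replicates. These medians did not overlap between the groups, and KO replicate 3 stood highest. The shares of members above the control mean did meet. They were 75.7% in KO replicates 1 and 2 and 82.4% in KO replicate 3. In control replicates 1 to 3 they were 25.7%, 75.7% and 60.8%. The control libraries themselves were spread over 0.15 on this scale. The members are poor in G and C, with a median exon GC content of 39.9% against 47.4% over all tested genes, and GC content moved with part of this spread. After each gene's value was centred on genes of like GC content, the control medians were 0.0038, 0.00084 and -0.0057 and the KO medians 0.19, 0.25 and 0.26. The median log2 fold change of the segment was 0.24 after this centring too.

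**Figure D2:**
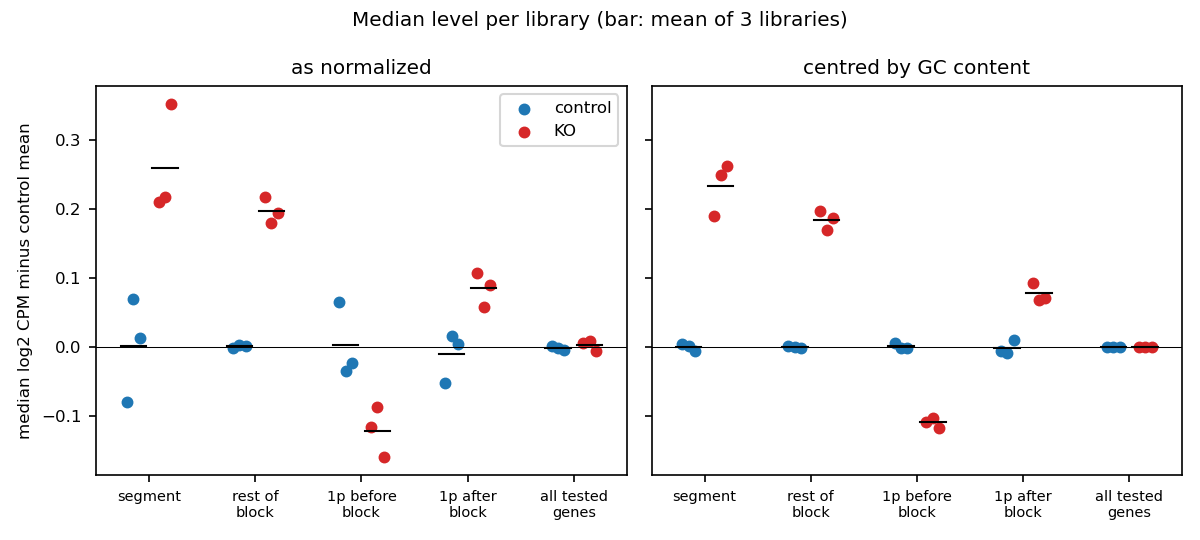
Median over genes of log2 CPM minus the control mean in each of the 6 libraries, for the segment and for other stretches of 1p, as normalized (left) and after centring by exon GC content (right); bars are means of 3 libraries. In the segment the KO libraries lie at 0.21 to 0.35 and the controls at -0.080 to 0.070, and after centring the controls lie close to zero.

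The members did not all have the same log2 fold change, but by interquartile range they were spread no more widely than all tested genes. Their log2 fold changes had an interquartile range of 0.35, beside 0.37 over all tested genes. The stretch of equal width below the segment was narrower, with 0.32 in the 58 tested genes from 61.2 to 78.0 Mb. The stretch of equal width above the segment was wider, with 0.37 in 84 tested genes. The 274 tested genes that lie outside the segment between the breaks fitted to the arm (given further on) had a range of 0.31. Over the rest of 1p, which joins stretches of opposite sign, the range was 0.41. The median standard error of a member was 0.088, and 36 of 74 (48.6%) lay over 2 of their own standard errors from the segment median. In the stretches of equal width below and above the segment 34.5% and 38.1% of tested genes lay as far from their own median, and 40.7% of all tested genes did. Over the rest of 1p 47.1% did, close to the share in the segment. Both stretches of equal width had a larger median standard error, 0.095, which widens the margin used.

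Expression level went along with the displacement. The 25 members with the lowest mean level (0.33 to 10.8 CPM) had a median log2 fold change of 0.014, and 13 of them lay above zero. The 24 members at 12.4 to 50.6 CPM had a median of 0.30 with 23 above zero, and the 25 at 51.4 to 734 CPM a median of 0.28 with 24 above zero. The low group was measured less precisely, with a median standard error of 0.23 against 0.088 and 0.074. Over the 74 genes the Spearman correlation of log2 fold change with mean CPM was 0.14, and with exon GC content -0.21. At 10 CPM or more, 47 of 50 members stood above zero, and the 3 exceptions were ADGRL2, LPAR3 and GBP4. Protein-coding members (62) had a median of 0.26 and the 12 others a median of 0.099. On the plus strand 26 of 29 genes stood above zero with a median of 0.30, and on the minus strand 34 of 45 with a median of 0.23. Both members called lower lie on the minus strand.

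Along the segment the median varied without a trend, and the Spearman correlation of log2 fold change with gene start was -0.034 over 74 genes, which share libraries and are not independent. From 78 to 80 Mb, 10 tested members had a median of 0.37. The next 4 Mb held 1 tested gene, ADGRL2, at -0.21. The 16 members from 84 to 86 Mb had a median of 0.13, and this stretch holds both members called lower. From 86 to 88 Mb all 7 members stood above zero with a median of 0.39, and 5 were called higher. The 12 members from 88 to 90 Mb had a median of 0.23, the 9 from 90 to 92 Mb a median of 0.066, and the 15 from 92 to 94 Mb a median of 0.30. The last 0.8 Mb held 4 tested members with a median of 0.24.

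The ribosome group had the narrowest range of log2 fold changes among the groups with more than 1 tested gene, 0.32 to 0.54. All 4 listed genes stood above zero, with a median of 0.40, and 3 were called higher. RPL5, which carries 5S ribosomal RNA into the large subunit, was the most abundant member of the segment at 612, 659 and 615 CPM in the control libraries and 823, 825 and 868 CPM in the KO libraries. The groups did not overlap, and the log2 fold change was 0.42 (SE 0.069). DNTTIP2, a nucleolar protein of small-subunit assembly, was present at 70.1, 74.5 and 65.2 CPM in the control libraries and 84.9, 110.2 and 109.9 CPM in the KO libraries. Its KO values were all above the control values and differed more among themselves, for a log2 fold change of 0.54. ZNHIT6, an assembly factor of small nucleolar RNPs, was called higher at 0.38, and RPF1, a large-subunit assembly factor, reached 0.32 and was not called; both are named because the group has 4 genes.

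Among the 7 GBP genes, 5 were tested and 3 of these were called higher. GBP5, a GTPase that promotes inflammasome assembly, had the largest log2 fold change of the segment, 1.49 (SE 0.12, 2.81-fold). It stood at 3.74, 4.50 and 4.36 CPM in the control libraries and 12.99, 11.3 and 11.4 CPM in the KO libraries. GBP1, the most abundant of the family, stood at 149, 159 and 149.9 CPM in the control libraries and 217, 214 and 252 CPM in the KO libraries, a log2 fold change of 0.58 (SE 0.073). In both genes each KO library exceeded each control library. GBP4 went the other way without being called, at 119, 105 and 112 CPM in the control libraries and 99.97, 85.99 and 100.3 CPM in the KO libraries and a log2 fold change of -0.23 (SE 0.076). GBP2 was called higher at 0.41 and GBP3 was not called at 0.27. GBP1P1, a transcribed pseudogene of the cluster with 1.92 CPM in control and 1.40 CPM in KO libraries, had a log2 fold change of -0.49 (SE 0.23) and was not called. These paralogs are similar in sequence, and how the authors treated reads that map to several places was not stated, so the division of reads among them is uncertain.

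Of the transcription and chromatin genes, 11 of 12 were tested, 9 lay above zero and 2 were called higher, with a median of 0.26. LMO4 rose from 51.2, 49.99 and 47.99 CPM in the control libraries to 111, 106 and 116 CPM in the KO libraries. Its log2 fold change was 1.16 (SE 0.073, 2.24-fold), the farthest from the segment median in units of its own standard error. FUBP1, a single-strand DNA-binding regulator of MYC, was the most abundant of the group and did not share the displacement. It stood at 209.9, 206 and 209 CPM in the control libraries and 211, 204 and 216 CPM in the KO libraries, with overlapping groups and a log2 fold change of 0.016. DR1, a repressor of the TATA-binding protein, lay above zero at 0.34 with groups that did not overlap. It was not called only because its fold change, 1.27, was under the threshold of 1.3. ZNF644, a zinc finger protein, was the other member called higher, at 0.43.

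All 8 kinase and signalling genes lay above zero, with a median of 0.25, and 2 were called higher. ARHGAP29 was the most abundant of them and hardly differed, at 275, 326 and 313 CPM in the control libraries and 315, 300.3 and 320.4 CPM in the KO libraries and a log2 fold change of 0.033 (SE 0.072). GNG5, a G protein gamma subunit, lay at 0.13. The 2 called members were PRKACB, a catalytic subunit of protein kinase A, at 0.46 and BCAR3, a signalling adaptor, at 0.44.

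Receptors and mucolipin channels included both members called lower and 1 of the highest. PTGFR, the prostaglandin F receptor, was called higher at 7.76, 9.21 and 9.0 CPM in the control libraries and 17.8, 14.6 and 16.02 CPM in the KO libraries, a log2 fold change of 0.89 (SE 0.11). LPAR3, a receptor for lysophosphatidic acid, was called lower at 13.4, 12.7 and 11.6 CPM in the control libraries and 11.03, 8.13 and 7.90 CPM in the KO libraries. Its groups did not overlap, and the log2 fold change was -0.49 (SE 0.12, 1.40-fold lower). ADGRL2, a latrophilin-type adhesion receptor, stood at 41.98, 45.8 and 46.5 CPM in the control libraries and 39.2, 37.3 and 39.8 CPM in the KO libraries, with every KO value below every control value, and was not called at -0.21. MCOLN3, a cation channel of endosomes and lysosomes, was called lower at 7.26, 8.72 and 8.25 CPM in the control libraries and 5.49, 5.83 and 5.65 CPM in the KO libraries, a log2 fold change of -0.51 (SE 0.12, 1.43-fold lower). It shares 30419 bases with DNAI3 on the other strand, and whether reads were counted by strand was not stated. Its neighbour MCOLN2 lay at -0.015. The other members below zero were not called and came from no single group. GEMIN8P4, a processed pseudogene, stood at 1.34, 1.27 and 1.26 CPM in the control libraries and 1.03, 1.03 and 1.06 CPM in the KO libraries, so that every KO value was below every control value, with a log2 fold change of -0.30 (SE 0.23). BARHL2, a homeobox gene at 0.44 CPM on average, had the lowest value of the segment, -0.85 (SE 0.39). It passed the filter only through the control libraries, with 3 of these and 0 KO libraries over the required level. The filter thus favoured a negative value, and no weight is put on it. In the other direction, BTBD8, at 0.40 (SE 0.33) and not called, had 2 control and 3 KO libraries over the required level, which favoured a positive value.

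The 3 LRRC8 subunits had a median of 0.0063, the value of LRRC8D, whose sign turned with library size alone as the scaling, and none was called. LRRC8D, the most abundant, stood at 118, 124 and 127 CPM in the control libraries and 129.6, 111 and 131 CPM in the KO libraries, so that the groups overlapped. LRRC8C lay at 0.32 with separate groups and LRRC8B at -0.15. Of the 3 CLCA genes only CLCA2 was tested, and it was called higher at 0.891, 0.614 and 0.590 CPM in the control libraries and 1.52, 1.47 and 1.78 CPM in the KO libraries, a log2 fold change of 1.20 (SE 0.25) that rests on 15 to 42 counts per library.

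The tested enzymes and structural genes all lay above zero. Of 8 listed enzymes 7 were tested, with a median of 0.20, and 3 were called higher. SELENOF, a selenoprotein of the endoplasmic reticulum, and DDAH1, which degrades asymmetric dimethylarginine, were the most abundant and were not called at 0.20 and 0.14. The 3 called were TTLL7, a tubulin polyglutamylase, at 0.72, KYAT3, a kynurenine aminotransferase, at 0.57 and HS2ST1, a heparan sulfate sulfotransferase, at 0.40. KYAT3 overlaps RBMXL1, at 0.24, by 13498 bases on the same strand, so the counts of KYAT3 are uncertain. The 5 genes of membrane traffic and cell structure had a median of 0.33 and 2 were called higher. SH3GLB1, a membrane-bending endophilin, was one of them at 136, 147 and 137 CPM in the control libraries and 190.1, 173 and 190.4 CPM in the KO libraries, with separate groups and a log2 fold change of 0.39. The other was NEXN, an actin-binding protein, at 0.71. TMED5, a cargo receptor of the early secretory pathway, lay at 0.16. DIPK1A was called higher at 14.8, 16.1 and 16.2 CPM in the control libraries and 26.1, 24.9 and 28.4 CPM in the KO libraries, a log2 fold change of 0.75 (SE 0.091). It overlaps RPL5 by 9188 bases on the opposite strand, and its counts are uncertain for that reason.

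**Figure D3:**
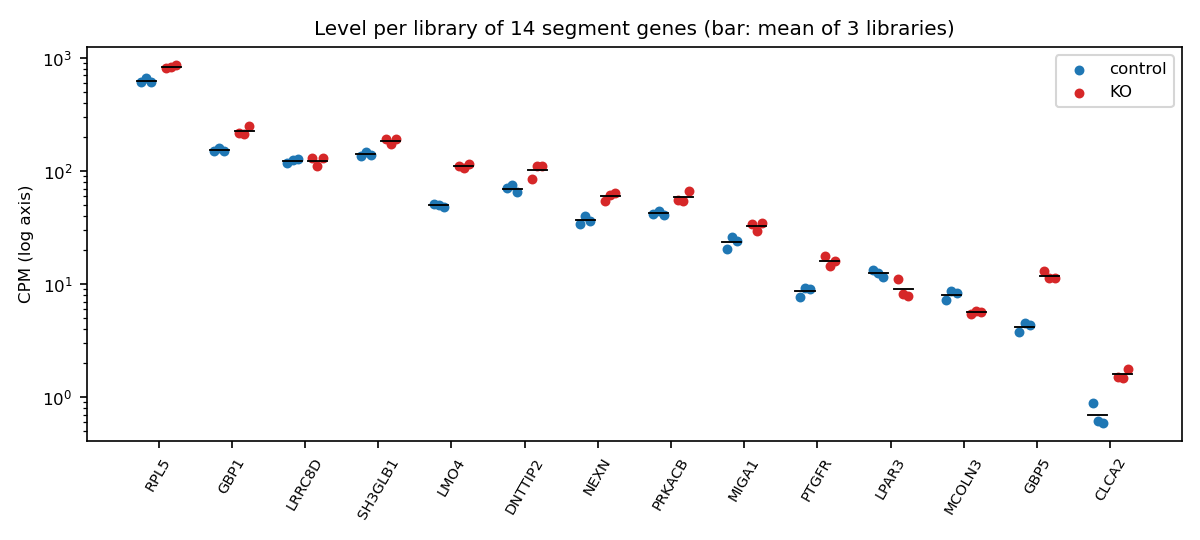
Level in CPM on a log axis of 14 genes of the segment in each control and KO library, with bars at the mean of 3 libraries. RPL5, GBP1, LMO4, PTGFR, GBP5 and CLCA2 show separate groups with KO higher, LPAR3 and MCOLN3 separate groups with KO lower, and LRRC8D overlapping groups.

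Values above zero did not end at the borders of the segment. Just inside the lower border, ZZZ3, a chromatin reader, lay at 0.26, USP33, a deubiquitinase, at 0.13 and MIGA1, a mitochondrial protein, at 0.47, the last called higher. Just outside it, the tested genes PIGK, RPL17P6 and AK5 lay at 0.13, 0.048 and -0.067. At the upper border DNTTIP2, ARHGAP29 and ENSG00000236098 lay inside at 0.54, 0.033 and 0.014. Outside it, ABCD3, a peroxisomal transporter, and F3, tissue factor, were both called higher at 0.46 and 1.04, and SLC44A3 lay at 0.19. Stretches of the same width on either side had medians above zero, lower than that of the segment. The 58 tested genes from 61.2 to 78.0 Mb had a median of 0.11 with 74.1% above zero, and the 84 from 94.8 to 111.6 Mb a median of 0.13 with 69.0% above zero. Fewer of their genes were called higher than in the segment, 8.62% and 11.9%, beside 7.57% of all tested genes. The segment was picked on these fold changes, so its higher share and median carry no further weight. In the lower of these stretches the groups overlapped, since the median level of KO replicate 2 (0.027 above the control mean) was under that of control replicate 2 (0.038). After centring by GC content they did not overlap there, with the controls at -0.0073 to 0.0034 and the KO libraries at 0.051 to 0.14.

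Over the rest of 1p, the 803 tested genes had a median log2 fold change of 0.0013 and 50.1% lay above zero, but this pooled value joined stretches of opposite sign. When 3 levels were fitted by least squares to the 877 tested genes of the arm in order of start, the lower break fell between THRAP3, which starts at 36690033, and SH3D21, which starts at 36771969, 41.2 Mb below the segment. The upper break fell between PTBP2 at 97187221 and DPYD at 97543299, 2.39 Mb above it. The 398 genes before the lower break had a median of -0.12 and 25.9% above zero. Between the breaks, the 274 tested genes outside the segment had a median of 0.20 with 78.8% above zero, and 40 (14.6%) were called higher. After the upper break the median of 131 genes was 0.071. In KO replicates 1 to 3 the median of the genes between the breaks and outside the segment was 0.22, 0.18 and 0.19, and that of the genes before the lower break was -0.12, -0.088 and -0.16.

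The lower end was the better placed end. With each KO library fitted alone against the control mean, a break fell between THRAP3 and SH3D21 in all 3. The upper end fell at 97.2 Mb in KO replicate 3 only, while KO replicate 2 placed its second break at 46.7 Mb and KO replicate 1 placed its second break at 6.28 Mb, leaving 1 level of 0.19 from SH3D21 to the end of the arm. In the fit to all libraries but KO replicate 3 the upper break fell at 46.7 Mb too, and the stretch beyond it still had a median of 0.12. Medians in steps of 10 Mb were -0.13, -0.12, -0.14 and -0.021 up to 40 Mb, then 0.22 from 40 to 50 Mb, 0.18, 0.11 and 0.13 up to 80 Mb, 0.23 and 0.22 up to 100 Mb, and 0.14 and 0.045 up to 120 Mb. The 8 tested genes beyond 120 Mb had the highest median, 0.27. The segment therefore lay inside a longer stretch of genes that stood above zero, at about the level of the stretch from 40 to 60 Mb. What lies behind the step was not tested.

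**Figure D4:**
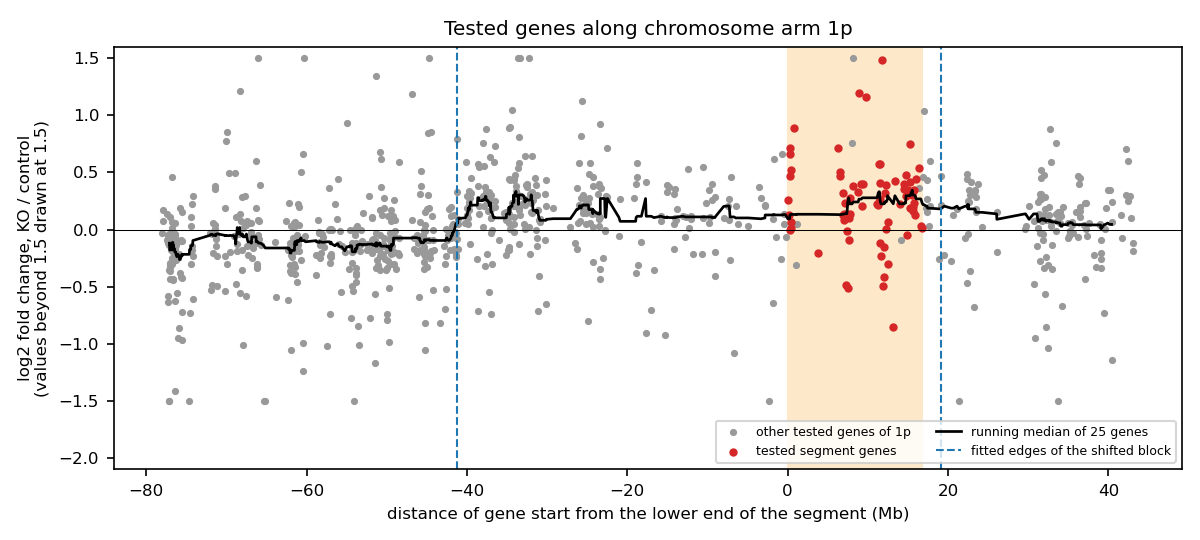
Log2 fold change (KO over control) of the 877 tested genes of 1p against the distance of their start from the lower end of the segment in Mb, with the segment shaded and its 74 tested members in red, other genes in grey, a running median of 25 genes and the fitted breaks as dashed lines; values beyond 1.5 are drawn at 1.5. The running median steps up at the lower break, 41.2 Mb below the segment, and neither fitted break lies at the lower border of the segment itself.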

How the data were processed

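One deposited table gave unnormalized read counts of each gene in 6 libraries. Per the study's methods, the authors had made it from paired reads of 75 bases by alignment to hg19 with STAR and assignment to GENCODE version 19 genes with featureCounts. Strand setting, treatment of reads that map to several places and tool versions are not given in the sources used here. Groups were taken from the sample titles, and 0 columns belonged to other samples. Gene starts came from GENCODE version 44 on GRCh37, the assembly of hg19, in place of version 19, so a start near a border may differ. Of 57820 genes, 55538 (96.05%) matched, and unmatched genes could not be placed on a chromosome.

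Genes were kept with filterByExpr (at least 0.419 CPM in 3 libraries, with a minimum total) of edgeR 4.0.16 in R 4.3.3, normalized with TMM, and compared over all genes with its robust quasi-likelihood F test with group as the only term. Standard errors were derived from F. The study's methods name DESeq2 and the call thresholds, and DESeq2 1.42.0 was run as an alternative. The breaks were fitted with values capped at 1 on the log2 scale and at least 10 genes in each piece. Centring by GC content took the median of each of 20 classes of exon GC content, and was chosen after seeing the data. The test was tried on simulated counts with known changes.

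The segment, gene groups and tests were chosen with earlier results of these data known. The genes named were the 5 most abundant members, the 5 highest and 5 lowest log2 fold changes at a mean of 1 CPM or more, the 3 tested genes on each side of each border, the 2 most abundant of each group, and FOXC1. Other genes named in the text were chosen after their values were seen. As alternatives, the fit was repeated with DESeq2, with RLE factors, with library size only, with other filters, with thinned counts, with a replicate block, without each library in turn, and with other fold thresholds and break fits.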

Additional observations from a re-analysis of the deposited data

How the results depend on the processing

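The median log2 fold change of the segment lay between 0.21 and 0.29 under the alternatives. The share of members above zero was 69.5% and the interquartile range 0.79 with no filter on low counts (154 genes), 85.5% and 0.31 with protein-coding genes only, and 77.0% with GC centring. The interquartile range was 0.31 at a mean of at least 50 counts. Without a fold threshold 37 members were called higher, DR1 and LRRC8C among them, and 4 lower, GBP4 and ADGRL2 among them. At more than 2-fold 3 were called higher and 0 lower. Leaving out each library in turn gave 73.0 to 82.7% above zero, interquartile ranges of 0.34 to 0.39, and 16 to 23 members called higher.

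The lower break stayed at 36.8 Mb except with no filter (35.7 Mb). The upper break was less fixed, at 95.7 Mb with thinning, 102 Mb with DESeq2, absolute deviations or no filter, 104 Mb at a mean of at least 50 counts and 110 Mb with protein-coding genes only. Leaving out a library gave 46.7 to 104 Mb, where 46.7 Mb was the value without KO replicate 3, the library with the highest segment median. The cause was not tested.

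Replicate numbers are shared between groups, but same-numbered libraries did not deviate together (correlations -0.023, -0.060 and 0.047). With the replicate number as a block, the median was 0.24, and 21 members were called higher and 2 lower, as without it. No called gene changed sign. Named genes near zero that were not called did under some alternatives: ARHGAP29 (to -0.043 without control replicate 1 and -0.053 with GC centring), FUBP1 (to -0.011 without KO replicate 3 and -0.071 with GC centring), LRRC8D, MCOLN2, RPL17P6, SLC44A3 and ENSG00000236098. Of the 180 members of the segment that did not pass the filter (at least 0.419 CPM in 3 libraries, with a minimum total), 80 had counts. These entered only the alternative with no filter on low counts. The other 100 had no count in any library and could not be followed.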

Other observations

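Of the 74 tested members, 23 overlap another tested member, in 15 pairs, of which 13 lie on opposite strands. Another 7 pairs start head to head within 1 kb, and 5 of these had the same sign in both genes. Of all tested members 81.1% lay above zero, so most pairs would share a sign in any case. Among them, GLMN and RPAP2 start 72 bases apart and lay at 0.48 and 0.30, SELENOF and HS2ST1 start 211 bases apart and lay at 0.20 and 0.40, and PRKACB-DT and PRKACB start 101 bases apart and lay at 0.51 and 0.46. LRRC8C-DT, at -0.41 with a standard error of 0.37, and LRRC8C, at 0.32, were of opposite sign. So were GEMIN8P4, at -0.30, and ZNF326, at 0.066. LRRC8C-DT passed the filter through the control libraries, with 3 of these and 1 KO library over the required level, which favoured a negative value. These pairs were chosen after their values were seen, and pairs that overlap may share reads.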
